A study of Sus scrofa with 3 samples.

Results

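The genes of glycolysis, the pentose phosphate pathway and the entry of pyruvate into mitochondria were compared in 3 pig cell populations. They are 34 genes named by symbol, all 34 of which had a row among the 26466 gene symbols counted. The series profiled mononuclear cells from peripheral blood (PBMC) and a pair of populations from bone marrow, mesenchymal stem cells (BM-MSC) and attached cells (BMAC). Each population is 1 library of 3' end counts, made from total RNA with a Lexogen QuantSeq kit. The labels name the species and the cell type of each group, with no genotype, breed, age, sex, culture condition or treatment, and do not say whether the populations came from the same animal. PBMC are the lymphocytes and monocytes of blood, and BM-MSC are stromal cells that grow attached to plastic. What separates BMAC from BM-MSC is not stated beyond the name. With no second library of any population, a difference below has no replicate error, and no p-value was computed.

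Glycolysis splits glucose into pyruvate and yields ATP without oxygen. Glucose enters through facilitative transporters, is trapped by hexokinase and is committed at phosphofructokinase, whose activity the PFKFB enzymes tune through a sugar phosphate activator. Pyruvate is then either reduced to lactate by lactate dehydrogenase and exported by monocarboxylate transporters, or oxidised by the pyruvate dehydrogenase complex, which PDK kinases switch off. The pentose phosphate pathway branches off early and supplies NADPH and ribose. Several steps have alternative isoenzymes from separate genes, and cultured stromal cells are known to lean on glycolysis, as are activated lymphocytes.

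Library totals lay between 15122997 and 17069344 counts, and levels are given as counts per 1000000 of the library total (CPM). The 2 ribosomal RNA rows, RN18S and RN5-8S, with 3 predicted protein-coding rows on unplaced sequence that were grouped with them, took a larger part of both marrow libraries, 15.5% of BM-MSC and 11.4% of BMAC counts, than of PBMC, 5.29%. Of 12 leukocyte markers, 11 reached 10 CPM in PBMC and 0 in either marrow library, where their summed level was 5.10 CPM (BM-MSC) and 3.77 CPM (BMAC) against 5214 CPM in PBMC. CD3D, CD79B, CSF1R and NKG7 had 0 counts in BM-MSC, and CD3D, MS4A1, CD79B and LYZ had 0 counts in BMAC. All 10 stromal markers reached 10 CPM in both marrow libraries, with summed levels of 15591 and 12687 CPM. In PBMC their sum was 52.6 CPM and only THY1 reached 10 CPM. None of 6 erythroid markers reached 10 CPM in any library. Among markers of platelets, endothelium, and myeloid cells with osteoclasts, those at 10 CPM in a marrow library were GP9, PECAM1 and CTSK in both and CD14 in BMAC alone. In bulk RNA, fewer cells of a type and less RNA per cell cannot be told apart.

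Taken as a whole, the 34 genes held a larger part of the library in both marrow populations than in blood. Their counts summed to 2301 CPM in PBMC, to 4914 in BM-MSC and to 7536 in BMAC, or 0.230%, 0.491% and 0.754% of all counts. BMAC was the highest library for 18 of the 34 genes, and PBMC the lowest for 21, with no floor or size rule. Neither these counts nor the order of the steps below was set beside all genes. Of 14 steps or groups, 9 followed one order, with PBMC lowest and BMAC highest, as the plot of summed levels by step shows. The exceptions were the PFKFB enzymes and the PDH kinases, which were highest in PBMC, the monocarboxylate transporters, lowest in BM-MSC, and the PDH subunits and pentose phosphate enzymes, highest in BM-MSC. The order of the 9 is that of sums, and single genes within them departed from it. HK3, PFKM and LDHB had the reverse order. HK1 and SLC2A1 were highest in BM-MSC, and SLC2A3 and ENO2 were lowest in BM-MSC.

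**Figure D1:**
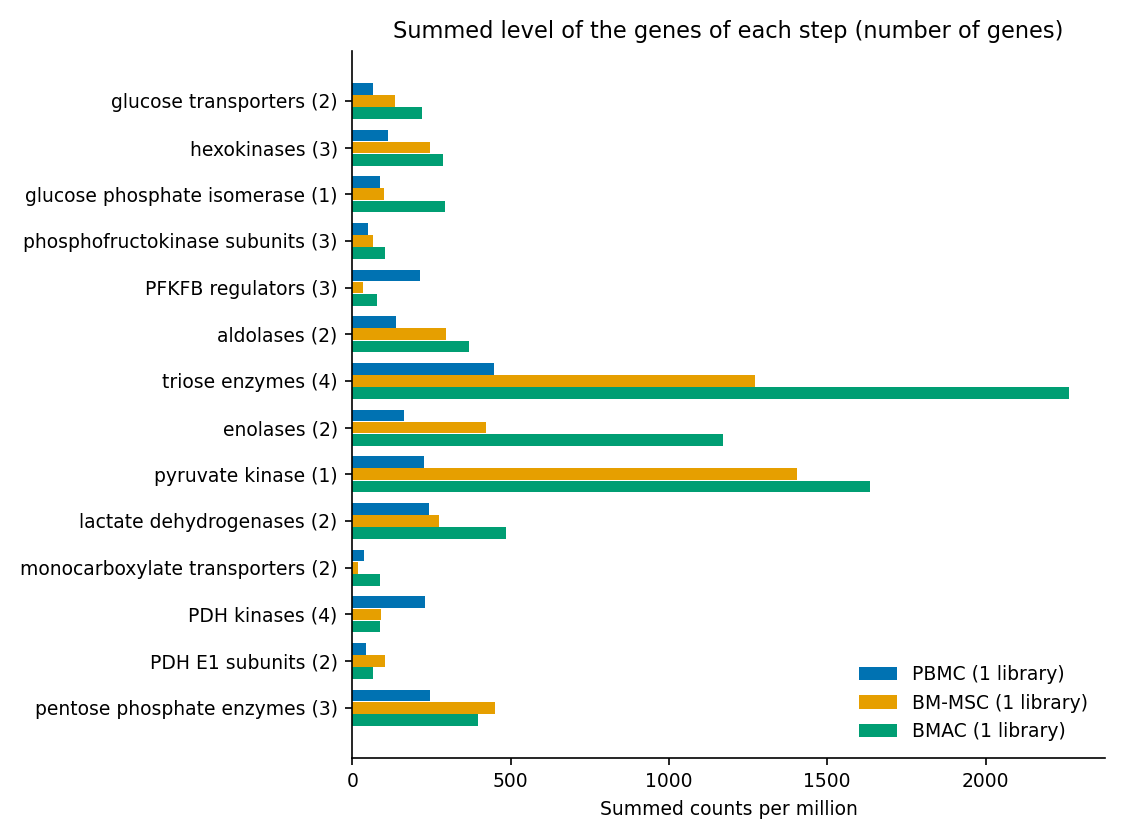
Summed CPM of the genes of each step in PBMC, BM-MSC and BMAC, 1 library per bar, with the number of genes in brackets. The 4 triose enzymes stood at 449, 1273 and 2263 CPM, of which GAPDH, whose row overlaps IFFO1, took 306, 884 and 1487 CPM. The 3 PFKFB enzymes stood instead at 213, 34.2 and 76.9 CPM.

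Genes were called different between 2 libraries by size alone. The log2 ratio was taken after adding 1 CPM to both levels, the higher library had to hold at least 10 CPM and at least 10 counts, and differences of at least 4-fold and at least 2-fold were counted. In all 3 libraries, 22 of the 34 genes reached 10 CPM. PFKM, ENO2, PDK2 and PDK4 did so in none, so they could not be called. HK3, PFKL, ALDOC, PFKFB2 and SLC16A3 reached it in 1 library only, so that calls on them favour that library. HK2, PFKFB4 and SLC2A1 reached it in 2 libraries, so a pair with the remaining library favours the higher one in the same way. A fold is the plain CPM ratio, higher over lower, with the 95% interval of counting error in parentheses.

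Between BM-MSC and PBMC, most enzymes of lower glycolysis were higher in the stromal cells, and the regulators PFKFB3, PFKFB4 and PDK1 were higher in blood. By the 4-fold rule, PKM, PGK1 and SLC2A1 were higher in BM-MSC, and PFKFB3, PFKFB4 and PDK1 higher in PBMC, 3 each of the 27 genes above the floor. Over all 11428 genes above it, 14.3% and 15.7% were called in those directions, 30% in all, so at 4-fold these shares of 11.1% were no larger than the background. By the 2-fold rule 14 genes were called in favour of BM-MSC and 6 in favour of PBMC, or 51.9% and 22.2%, beside 26.4% and 31.8% of all genes, 58.1% together. The median log2 ratio of the 27 was 1.09, and that of all genes -0.16. With no floor the median over all 34 was 0.56.

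BMAC differed more from PBMC, a comparison that shares its blood library with the previous one. Here 12 genes were at least 4-fold higher in BMAC: HK2, PFKL, ALDOC, TPI1, GAPDH, PGK1, PGAM1, ENO1, PKM, LDHA, SLC2A1 and SLC16A3. HK3 alone was at least 4-fold higher in PBMC. These were 41.4% and 3.45% of the 29 genes above the floor, beside 14% and 12.8% of 11371 genes, 26.8% together. Of the 12, HK2, PFKL, ALDOC, SLC2A1 and SLC16A3 were below 10 CPM in PBMC and passed the floor through BMAC alone. HK3 passed it through PBMC alone. By the 2-fold rule 18 were higher in BMAC and 4 in PBMC (62.1% and 13.8%, beside 24.8% and 26.4%, or 51.2% together, of all genes), and the median log2 ratio was 1.40, against -0.12 for all genes.

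The marrow populations were closer to each other, and nearly all called genes were higher in BMAC. HK2, PFKL, PFKFB3, SLC2A3 and SLC16A3 were at least 4-fold higher in BMAC, 17.2% of 29 genes above the floor beside 3.21% of 10303 genes. None was at least 4-fold higher in BM-MSC, beside 2.9% of all genes, which makes 6.11% in either direction. The 2-fold rule added 6 genes on the BMAC side, GPI, ALDOC, TPI1, ENO1, LDHA and PFKFB4, for 37.9% beside 11.1%. Of these genes, PFKL, SLC16A3, ALDOC and PFKFB4 were below 10 CPM in BM-MSC and passed the floor through BMAC alone. The 4-fold call of PFKFB3 and the 2-fold call of PFKFB4 were at the limit. Both were lost with TMM, with median-of-ratios factors, without ribosomal or mitochondrial rows in the total, and with a pseudocount of 5 CPM. PFKFB2 alone was called in BM-MSC, 3.45% beside 8.2%, and it passed the floor through BM-MSC alone. Of all genes, 19.3% were called in either direction. The median log2 ratio of BM-MSC over BMAC was -0.47 over the 29 genes and -0.09 over all genes. It was -0.99 over the 22 genes that share no position with another well counted row.

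**Figure D2:**
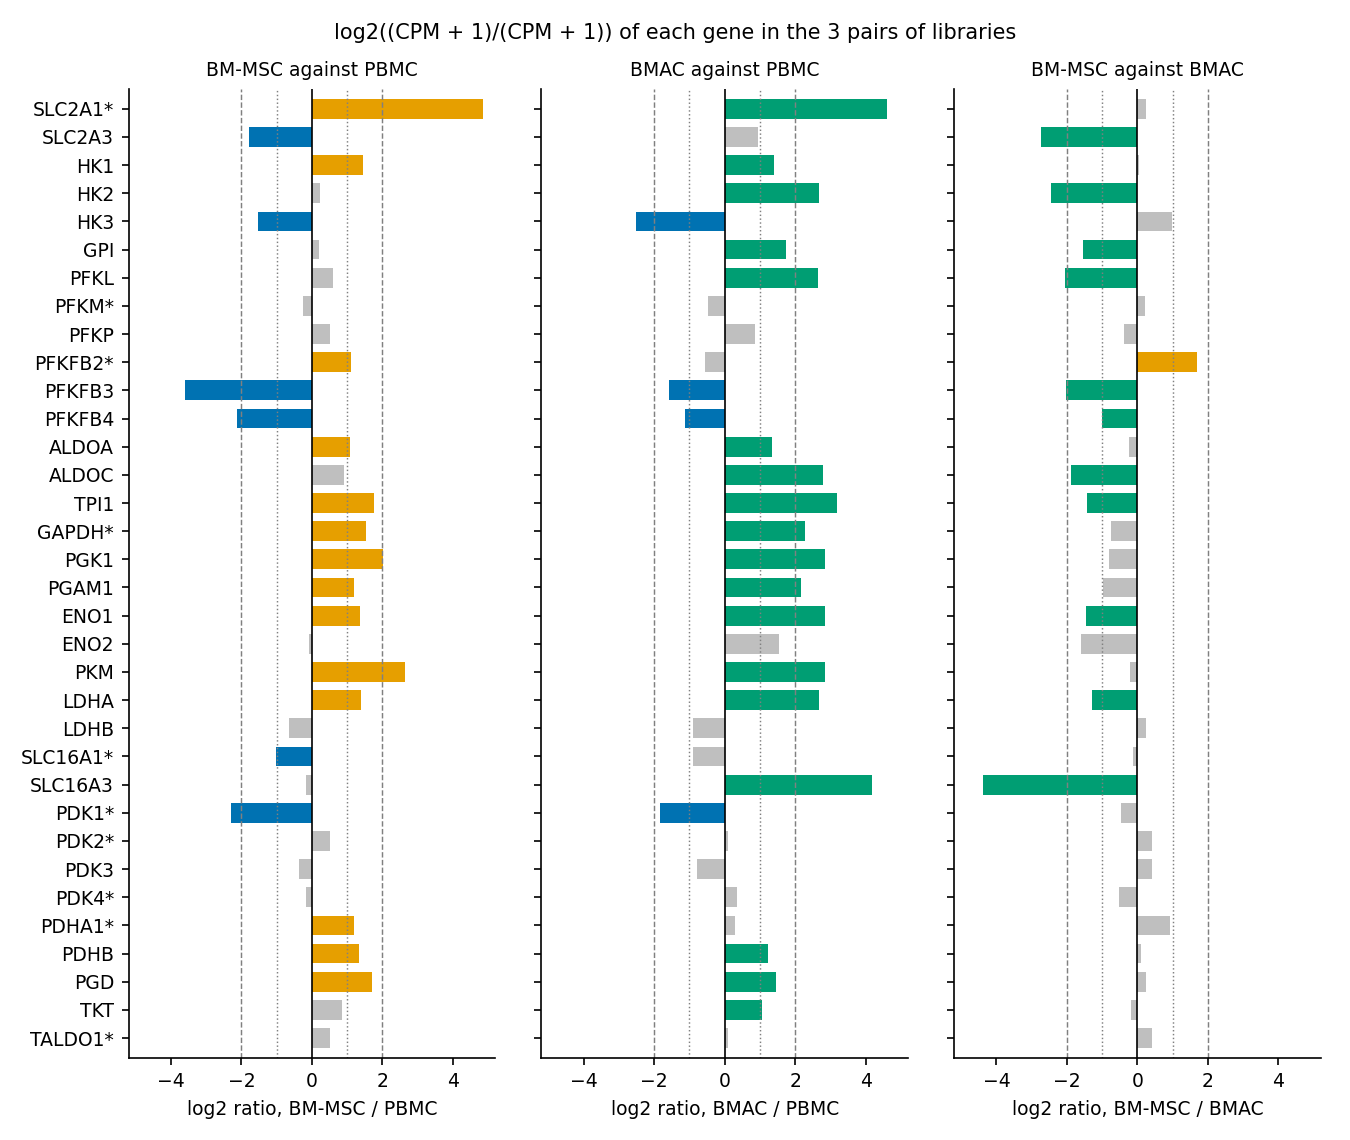
The log2 ratio after adding 1 CPM for each gene in the 3 pairs of libraries, in pathway order; bars past the 2-fold rule carry the colour of the higher library (blue PBMC, orange BM-MSC, green BMAC), grey bars are not called, dotted and dashed lines mark 2-fold and 4-fold, and an asterisk marks a gene overlapping another row. In the pairs with PBMC, most bars from ALDOA to LDHA point to the marrow library, up to 3.20 for TPI1 in BMAC. There PFKFB3, PFKFB4 and PDK1 point to PBMC, and between the marrow libraries they point to BMAC.

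Scaling bears on these counts. With TMM or median-of-ratios factors in place of library totals, the median over all genes moved from -0.16 to 0.23 and 0.26 for BM-MSC over PBMC, and from -0.12 to 0.21 and 0.22 for BMAC over PBMC. Relative to it the genes described here hardly moved, from 1.25 to 1.19 and 1.18, and from 1.52 to 1.48 and 1.47. The 4-fold split between BM-MSC and PBMC went from 3 and 3 to 5 and 1 with either factor: TPI1 and PGD entered on the BM-MSC side, and PFKFB4 and PDK1 dropped below 4-fold. Among all genes called at 4-fold in that pair, the share higher in BM-MSC went from 47.6% to 58.5% with TMM. The sign of a single gene turned only for PFKM, ENO2 and SLC16A3 between BM-MSC and PBMC, which lie near equality and below the floor.

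The annotation also bears on single genes. By the RefSeq annotation of Sscrofa11.1, 10 of the 34 genes overlap a row that holds at least 25% of their count in some library: PFKM, GAPDH, PFKFB2, PDK1, PDK2, PDK4, PDHA1, SLC2A1, SLC16A1 and TALDO1. How strand and shared reads were handled is not stated in any source used here, so levels of these 10 are uncertain. GAPDH is the clearest case. The row IFFO1 stood at 317, 843 and 1396 CPM in PBMC, BM-MSC and BMAC, or 104%, 95.3% and 93.9% of the GAPDH count. Glycolytic enzyme genes also have processed copies in mammalian genomes, among which reads may have been divided.

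**Figure D3:**
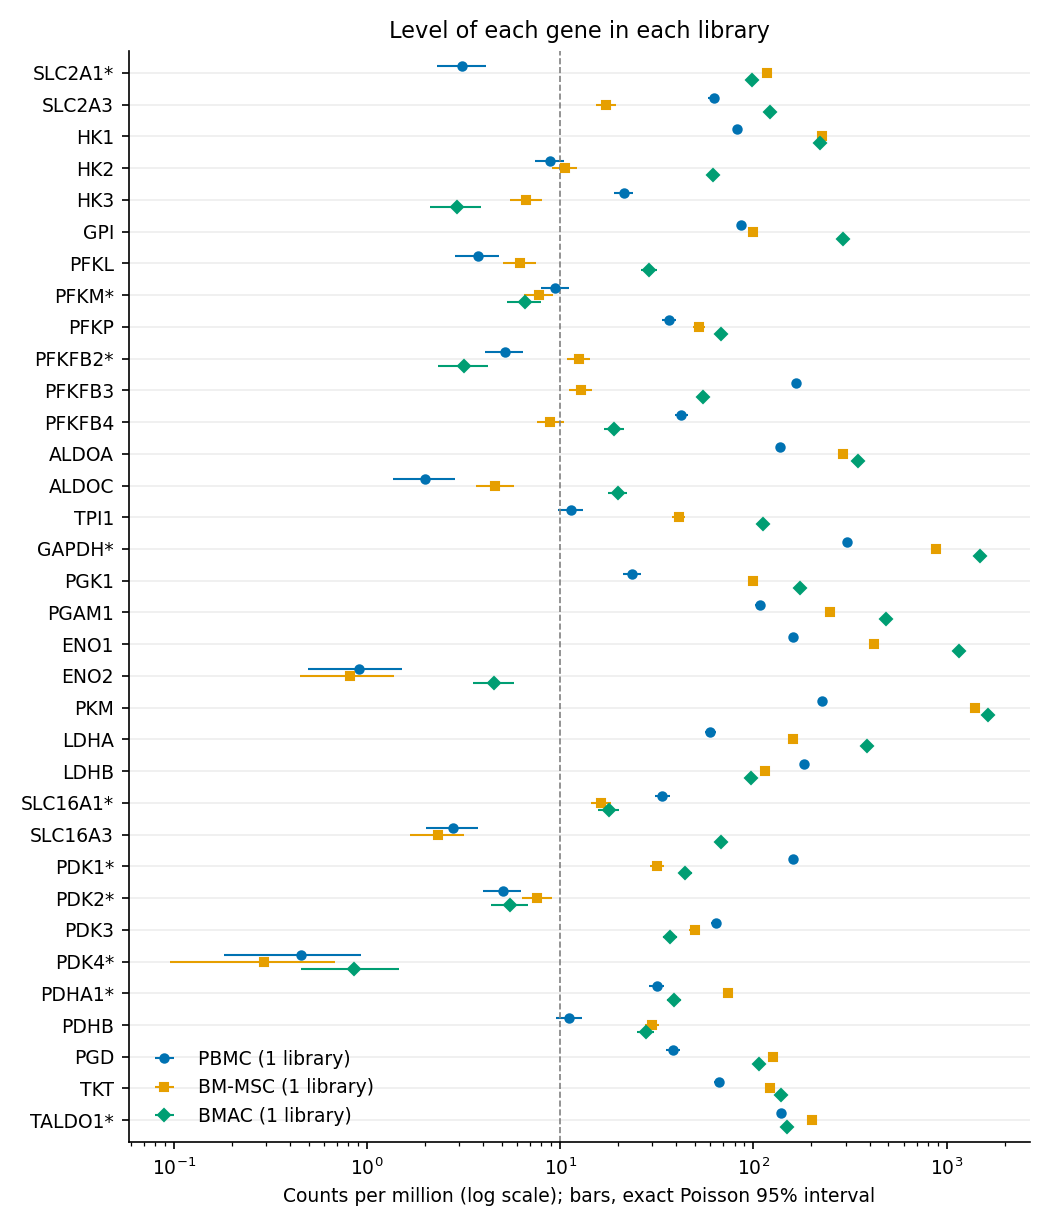
Level of each of the 34 genes in PBMC (blue circles), BM-MSC (orange squares) and BMAC (green diamonds), in CPM on a log axis, 1 library each, with exact Poisson 95% intervals for counting error; the dashed line is 10 CPM and an asterisk marks a gene overlapping another row. From TPI1 to ENO1 the 3 libraries stand in the order PBMC, BM-MSC, BMAC, and SLC2A1 and SLC16A3 show the widest gaps.

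The glucose transporters were divided between the populations. SLC2A1, which encodes the widely expressed transporter GLUT1, stood at 3.11 CPM in PBMC, at 117 in BM-MSC and at 98.9 in BMAC. It was thus low in blood and high in both marrow libraries, by 37.8-fold (28.4 to 51.4) and 31.8-fold (23.9 to 43.4), the largest fold of any of the 34 genes in each of these pairs. The overlapping row ZNF691 stood at 34.2, 129 and 120 CPM. SLC2A3, the high-affinity transporter GLUT3, stood at 62.5 CPM in PBMC, at 17.3 in BM-MSC and at 122 in BMAC. Here BM-MSC was the low library, 3.60-fold (3.16 to 4.12) under PBMC and 7.04-fold (6.22 to 7.98) under BMAC. In counts, the ratio of SLC2A1 to SLC2A3 was 0.0497 (0.0364 to 0.0665) in PBMC, against 6.77 (5.99 to 7.68) in BM-MSC and 0.811 (0.757 to 0.869) in BMAC. The ratio was thus lowest in PBMC, highest in BM-MSC and between them in BMAC.

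Each hexokinase had its own order. HK1, the broadly expressed form that docks on mitochondria, stood at 82.7 CPM in PBMC, at 227 in BM-MSC and at 221 in BMAC. The marrow libraries did not differ beyond counting error, at 1.03-fold (0.983 to 1.08). HK2, the inducible form of muscle and growing cells, stood at 8.87, 10.5 and 62.2 CPM in the same order. Only BMAC was high, 7.01-fold (5.85 to 8.45) over PBMC and 5.89-fold (5.02 to 6.95) over BM-MSC. HK3, a form found mainly in white blood cells, ran the other way, at 21.3 CPM in PBMC, at 6.68 in BM-MSC and at 2.91 in BMAC. Its fold between PBMC and BMAC was 7.32 (5.33 to 10.3), in a pair where leukocyte markers summed to 5214 and 3.77 CPM; their part in the result was not tested. GPI, the isomerase that follows, stood at 86.6 CPM in PBMC and 99.1 CPM in BM-MSC, and at 292 CPM in BMAC. BMAC was the high library again, 2.94-fold (2.78 to 3.12) above BM-MSC.

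Phosphofructokinase is built from 3 kinds of subunit. PFKL, the liver type, stood at 3.76 CPM in PBMC, at 6.21 in BM-MSC and at 28.9 in BMAC, so that BMAC was 7.70-fold (5.84 to 10.3) and 4.65-fold (3.76 to 5.81) higher. PFKP, the platelet type, differed less, at 36.6, 52.4 and 67.8 CPM. PFKM, the muscle type, stayed below the floor at 9.45, 7.73 and 6.55 CPM, and the row SENP1 that overlaps it held more counts in every library. The largest folds among the subunits were those of PFKL, which passed the floor through BMAC alone.

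Of the PFKFB enzymes, which make and remove the activator of phosphofructokinase, PFKFB3 and PFKFB4 were highest in blood. PFKFB3, the form with the strongest bias towards making it, stood at 165 CPM in PBMC, at 12.8 in BM-MSC and at 54.7 in BMAC. Blood was high, BMAC intermediate and BM-MSC low, with folds of 13.0 (11.3 to 14.9) for PBMC over BM-MSC and 3.02 (2.80 to 3.28) over BMAC. BMAC stood 4.28-fold (3.68 to 4.99) above BM-MSC, just past the 4-fold rule. That call was lost under the same 5 alternatives as the 2-fold call of PFKFB4 in this pair. PFKFB4 had the same order at 42.3, 8.90 and 19.0 CPM. PBMC was 4.75-fold (3.97 to 5.70) over BM-MSC and 2.22-fold (1.93 to 2.56) over BMAC. PFKFB2, the heart type, was low throughout and highest in BM-MSC, at 5.18, 12.5 and 3.17 CPM, and it overlaps the rows C4BPB and YOD1.

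The enzymes from aldolase to phosphoglycerate mutase were all lowest in blood and highest in BMAC. ALDOA, the main aldolase of most tissues, stood at 137 CPM in PBMC, at 292 in BM-MSC and at 347 in BMAC. ALDOC, the brain type, stood at 2.01, 4.63 and 19.9 CPM. Both were lowest in blood and highest in BMAC, but ALDOA was 1.19-fold (1.14 to 1.24) higher in BMAC than in BM-MSC and ALDOC 4.30-fold (3.35 to 5.58). TPI1, which interconverts the triose phosphates, stood at 11.3, 41.1 and 112 CPM. Its folds over PBMC were 3.63 (3.07 to 4.31) in BM-MSC and 9.93 (8.49 to 11.7) in BMAC.

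GAPDH, the oxidising enzyme of the pathway and a common reference gene, was not level between these libraries, at 306 CPM in PBMC, at 884 in BM-MSC and at 1487 in BMAC. BM-MSC was 2.88-fold (2.79 to 2.98) and BMAC 4.85-fold (4.70 to 5.01) above PBMC, with the overlap named above. PGK1, which makes the first ATP of glycolysis, stood at 23.6, 99.1 and 175 CPM. It was past 4-fold over PBMC in both marrow libraries, at 4.19-fold (3.74 to 4.71) in BM-MSC and 7.41-fold (6.64 to 8.29) in BMAC. The call in BM-MSC was at the limit and was lost with a pseudocount of 5 CPM. PGAM1, the mutase, stood at 108, 249 and 489 CPM. All 3 genes had the same order, and BMAC was between 1.68-fold and 1.96-fold over BM-MSC, under the 2-fold rule.

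The last 2 steps to pyruvate were also lowest in blood. ENO1, the general enolase, stood at 161 CPM in PBMC, at 421 in BM-MSC and at 1165 in BMAC. BMAC was 7.23-fold (6.93 to 7.54) over PBMC and 2.77-fold (2.69 to 2.85) over BM-MSC. ENO2, the enolase of neurons, had 14 counts in both PBMC and BM-MSC and 69 in BMAC, under the floor in all. PKM, the pyruvate kinase of most tissues, stood at 226 CPM in PBMC, at 1406 in BM-MSC and at 1634 in BMAC. It differed from ENO1 in that the marrow libraries were alike, 1.16-fold (1.14 to 1.18) apart, and both far above blood, by 6.22-fold (interval ending at 6.44) and 7.23-fold (6.98 to 7.49). The splice forms of PKM end alike, so 3' end counts do not separate them. PKM, GAPDH and ENO1 together took 55.2% of the counts of the 34 genes in BM-MSC and 56.9% in BMAC. In PBMC the 3 genes with most counts were GAPDH, PKM and LDHB, whose 2 rows were summed, at 31.1%.

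Lactate dehydrogenase is assembled from the products of LDHA, whose subunit favours lactate formation, and LDHB, whose subunit favours its oxidation. LDHA stood at 60.0 CPM in PBMC, at 160 in BM-MSC and at 389 in BMAC. LDHB stood at 183, 116 and 97.5 CPM, the opposite order. BMAC was 6.48-fold (6.04 to 6.95) over PBMC for LDHA, whereas PBMC was 1.88-fold (at least 1.76 by its interval) over BMAC for LDHB, which is under the 2-fold rule. The ratio of LDHA to LDHB counts was 0.328 (0.304 to 0.354) in PBMC, against 1.38 (1.30 to 1.46) in BM-MSC and 3.99 (3.77 to 4.23) in BMAC. As a ratio within a library, it does not depend on the library total. LDHB has 2 rows, with 386 and 2438 counts in PBMC, 248 and 1724 in BM-MSC and 169 and 1305 in BMAC. They were summed, and both rows were highest in PBMC and lowest in BMAC.

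The transporters that carry lactate and pyruvate across the plasma membrane differed in order, and SLC16A3 set BMAC apart. SLC16A3, which encodes MCT4, a lactate exporter of strongly glycolytic cells, stood at 2.78 CPM in PBMC, at 2.34 in BM-MSC and at 68.3 in BMAC. PBMC and BM-MSC were both near the bottom of the range, with 43 and 40 counts, and BMAC had 1033. Its folds in BMAC were 24.5 (18.1 to 34.1) over PBMC and 29.1 (21.3 to 41.0) over BM-MSC, the largest of the 34 genes between the marrow populations. SLC16A1, which encodes MCT1, stood at 33.8, 16.3 and 17.9 CPM, highest in PBMC. Its 2-fold call over BM-MSC was lost with TMM, with median-of-ratios factors, without ribosomal rows in the total and with a pseudocount of 5 CPM. The marrow libraries were within counting error of each other, at 1.10-fold (0.924 to 1.30). Its overlapping row LRIG2 held more than 3 times its count in each library, at 112, 52.2 and 65.6 CPM.

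At the gate to mitochondrial oxidation, PDK1 was the only kinase of 4 past 2-fold in any pair, and it was higher in blood. PDK1, a kinase that inhibits pyruvate dehydrogenase, stood at 161 CPM in PBMC, at 31.7 in BM-MSC and at 44.4 in BMAC. PBMC was 5.07-fold (4.62 to 5.57) over BM-MSC and 3.62-fold (3.32 to 3.94) over BMAC. The overlapping row LOC110256990 had the same order, at 137, 34.3 and 52.2 CPM. Another overlapping row, LOC106508120, stood at 60.5, 4.22 and 3.77 CPM, or 37.6%, 13.3% and 8.48% of the PDK1 count. The part of these rows in the PDK1 levels was not tested. PDK3 stood at 64.2, 49.7 and 37.0 CPM, with no pair past 2-fold. PDK2 stayed between 5.05 and 7.62 CPM, and PDK4, the kinase induced by fasting, had 7, 5 and 13 counts. PDHA1, the catalytic alpha subunit, stood at 31.7 CPM in PBMC, at 73.8 in BM-MSC and at 38.7 in BMAC, and its overlapping row MAP3K15 at 20.5, 60.9 and 35.9 CPM. PDHB, the beta subunit, stood at 11.1, 29.9 and 27.7 CPM. Both subunits were lowest in blood, and for PDHB the marrow libraries did not differ beyond counting error (1.08-fold, 0.946 to 1.23).

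Of the 3 pentose phosphate enzymes, PGD was past 2-fold over PBMC in both marrow libraries and TKT in BMAC. PGD, an NADPH-producing dehydrogenase of the branch, stood at 38.5 CPM in PBMC, at 127 in BM-MSC and at 107 in BMAC. It was 3.29-fold (3.01 to 3.61) and 2.78-fold (2.53 to 3.05) higher in the marrow libraries. TKT, the transketolase, stood at 66.6, 122 and 139 CPM. TALDO1, the transaldolase, stood at 140, 202 and 150 CPM, where no pair reached 2-fold, and it overlaps GATD1 at 114, 203 and 134 CPM. None of the 3 reached 4-fold in any pair with library totals.

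Isoenzyme shares put these orders on one scale. A share is a gene's part of the counts of its family in a library, with an exact Clopper-Pearson 95% interval. Rows differ in how well their 3' ends are annotated, so a share compares 1 gene between libraries and not the genes within 1. HK2 held 7.86% (6.64 to 9.22) of hexokinase counts in PBMC, then 4.31% (3.72 to 4.97) in BM-MSC and 21.8% (20.5 to 23.0) in BMAC, and HK3 held 18.9%, 2.73% and 1.02%. LDHA held 24.7% (23.3 to 26.1), 58.0% (56.6 to 59.4) and 80.0% (79.0 to 80.9). SLC16A3 held 7.61% (5.56 to 10.1), 12.6% (9.14 to 16.7) and 79.3% (77.0 to 81.4) of its sum with SLC16A1, whose row overlaps LRIG2. SLC16A7, which encodes MCT2, was left out of that sum. For BM-MSC its 461 counts exceeded the 278 of SLC16A1, beside 266 for PBMC and 19 for BMAC. The SLC16A3 shares therefore hold for this pair of genes alone, and shares with SLC16A7 included were not computed. ALDOC held 1.45% (0.985 to 2.05) of aldolase counts in PBMC, 1.56% (1.24 to 1.94) in BM-MSC, and 5.42% (4.84 to 6.05) in BMAC, where it was highest. The ENO2 share of enolase counts was below 1% in all 3 libraries. Among PDH kinases, PDK1 held 69.8% in PBMC, but 35.5% in BM-MSC and 50.6% in BMAC, and PDK3 held 27.9%, 55.6% and 42.2%.

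**Figure D4:**
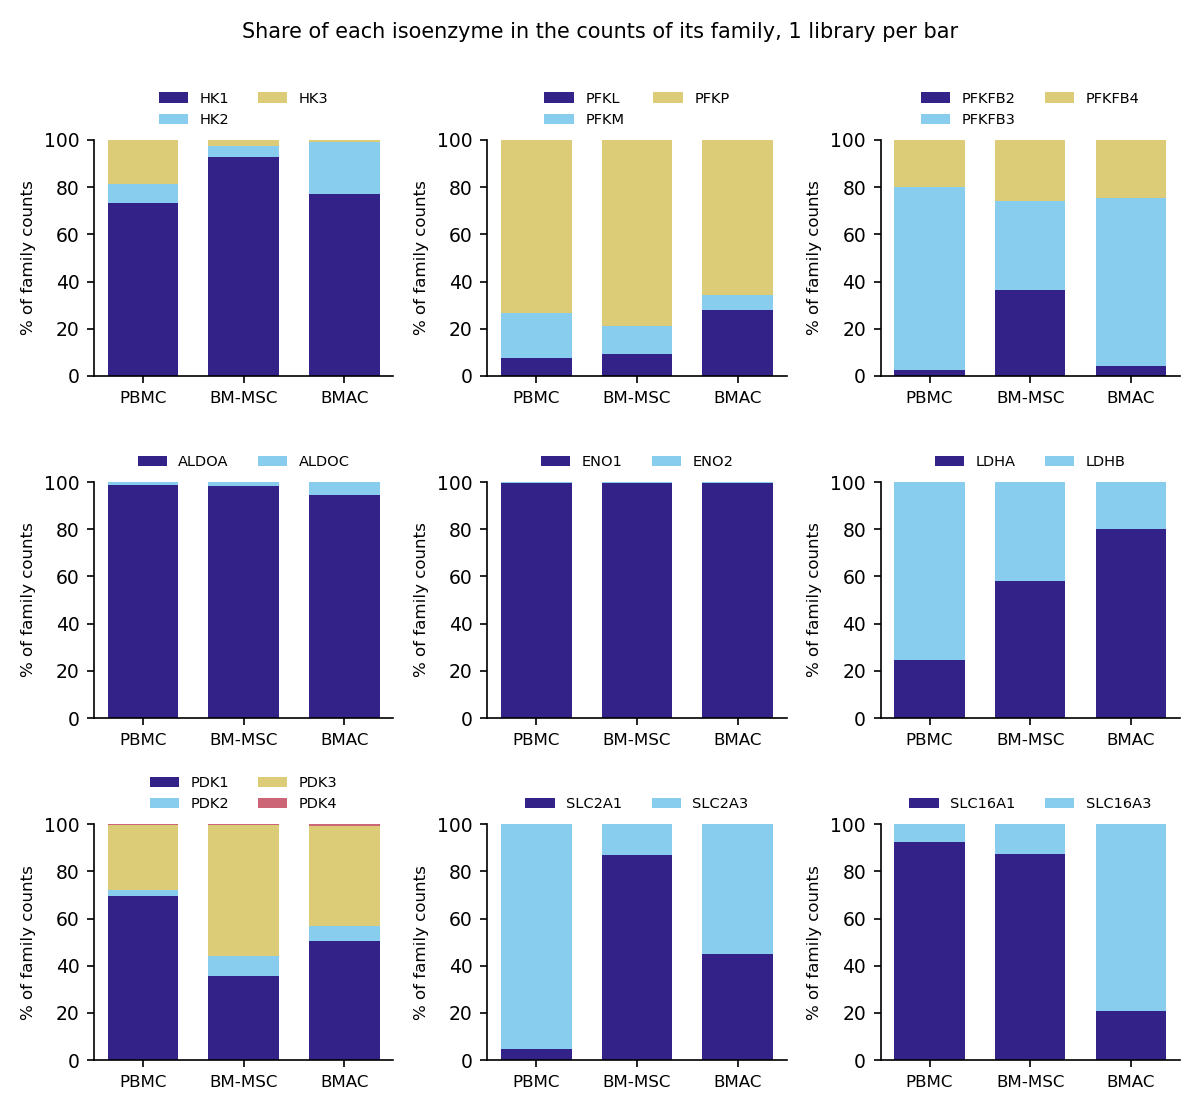
Share of each gene in the counts of its isoenzyme family, in percent, for PBMC, BM-MSC and BMAC, 1 library per bar. The LDHA share steps from 24.7% to 58.0% to 80.0%, and the SLC2A1 share is 4.74%, 87.1% and 44.8%. BMAC stands apart in PFKL (28.0%) and in SLC16A3 (79.3%), whose family here is SLC16A1 and SLC16A3 without SLC16A7.

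The subunits and regulators of phosphofructokinase also differed in share. PFKL held 7.54% (5.78 to 9.64) of subunit counts in PBMC, then 9.36% (7.73 to 11.2) in BM-MSC and 28.0% (25.8 to 30.3) in BMAC. The share of PFKM was 19.0%, 11.7% and 6.34%. PFKFB3 held 77.7% of the PFKFB counts in PBMC and 71.1% in BMAC, but 37.4% in BM-MSC, where PFKFB2 held 36.5%. Without PFKFB2, whose row overlaps others, the PFKFB3 share was 58.9% in BM-MSC against 79.6% in PBMC and 74.2% in BMAC, and the PFKFB4 share in BM-MSC went from 26.1% to 41.1%.

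Other genes of these pathways were read from 4 lists with none of the 34. Their counts stand beside the shares of all genes called in either direction. At 4-fold these shares were 30% for BM-MSC and PBMC, 26.8% for BMAC and PBMC, and 6.11% for BM-MSC and BMAC. At 2-fold they were 58.1%, 51.2% and 19.3%. Of 34 further genes of glycolysis, gluconeogenesis and pyruvate metabolism, 16 were above the floor between BM-MSC and PBMC, and 1 was at least 4-fold higher on each side. PCK2, the mitochondrial enzyme of gluconeogenesis, was 7.25-fold (5.63 to 9.48) higher in BM-MSC, and FBP1, which reverses phosphofructokinase, 5.34-fold (3.82 to 7.64) higher in PBMC. Between BMAC and PBMC none of 15 passed 4-fold. Between the marrow libraries 1 of 14 did, PDHX, a scaffold subunit of pyruvate dehydrogenase, at 14.5 CPM in BM-MSC and at 74.1 in BMAC. At 2-fold, PCK2, PGAM5, G6PC3, DLAT and GALM were higher in BM-MSC than in PBMC, and FBP1 and PGM2 lower. In BMAC, PCK2, PGAM5, G6PC3, PDHX and GALM were higher than in PBMC, and PGM2 lower. The genes called at 2-fold only in this and the next 3 lists are outside the rule for names and were chosen after their values were seen.

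Of 11 further pentose phosphate genes, 8 were above the floor in each pair. H6PD, the dehydrogenase of the endoplasmic reticulum, was the only gene past 4-fold, 5.02-fold (4.13 to 6.15) higher in BMAC than in PBMC. Among those past 2-fold, H6PD, RPE and RPIA were higher in BM-MSC than in PBMC and PRPS2 lower. H6PD and RPE were also higher in BMAC than in PBMC and PRPS2 lower, and RPIA was higher in BM-MSC than in BMAC.

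Further sugar and monocarboxylate transporters and their chaperones made up a list of 16 genes. SLC2A10 had 5 counts in PBMC against 457 in BM-MSC and 711 in BMAC, or 0.324, 26.8 and 47.0 CPM. SLC2A13, an inositol transporter, stood at 38.5, 266 and 268 CPM, and BSG, the chaperone of MCT1 and MCT4, at 30.9, 192 and 199 CPM. These 3 were at least 4-fold higher in both marrow libraries than in PBMC, among 9 genes above the floor for BM-MSC and 11 for BMAC. In BMAC the fructose transporter SLC2A5 was also higher, at 54.2 CPM against 1.36 CPM in PBMC and 8.44 CPM in BM-MSC. SLC16A7, which encodes MCT2, and its chaperone EMB were low in BMAC alone, SLC16A7 at 17.2, 27.0 and 1.26 CPM and EMB at 47.7, 28.0 and 4.03 CPM. MCT2 and MCT4 counts thus differed in opposite directions between BM-MSC and BMAC, at 21.5-fold (13.6 to 36.0) higher in BM-MSC for SLC16A7.

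In a list of 8 regulators, some of which answer to glucose or oxygen, 6 were above the floor in each pair. MLXIP, a glucose-sensing transcription factor, stood at 114 CPM in PBMC, at 10.8 in BM-MSC and at 16.2 in BMAC. Its partner MLX, which overlaps PSMC3IP, had the opposite order at 8.48, 63.2 and 39.7 CPM. TXNIP, a target of both that restrains glucose uptake, stood at 106 CPM in PBMC and 45.8 CPM in BMAC, and was 6.65-fold (5.84 to 7.58) higher in PBMC than in BM-MSC. HIF1A, the oxygen-regulated factor that is known to act on many glycolytic genes, passed 2-fold but not 4-fold, and only in the pairs with BM-MSC. It stood at 219 CPM in PBMC, at 65.2 in BM-MSC and at 255 in BMAC, 3.91-fold (3.66 to 4.18) higher in BMAC than in BM-MSC.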

How the data were processed

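The authors deposited whole-number raw counts per gene row for each of 3 libraries. Per the submitters' processing notes, Bowtie2 and bedtools were among the tools; their versions and roles, the build, the annotation and the strand setting are not stated there or in the labels. Library input was 500 ng of RNA, per the labels' protocols. Rows of the same symbol were summed, among the 34 genes only those of LDHB. Counts were divided by the library total to give CPM (counts of 3 equal 0.176 to 0.198 CPM). Ratios took log2 after adding 1 CPM. Fold intervals are exact conditional 95% intervals, level intervals exact Poisson, and all cover counting error only, since reads without molecular identifiers are not independent molecules. The text names all 34 genes and, of the 4 other pathway lists, up to 3 genes per list and pair past 4-fold; others were named after their values were seen. Marker lists were read as counts and sums. The genes and lists were chosen with earlier results of these data known. Alternatives were TMM (edgeR 4.0.16), median-of-ratios factors (DESeq2 1.42.0), totals without the 5 ribosomal and associated rows or without mitochondrial rows, pseudocounts of 0.5 and 5 CPM, other floors, and leaving out overlapping genes. The size rules were tested on counts simulated for all 26466 symbols with counting error alone. Known folds were set only in some genes well above the floor, so the rules were not tested near it. RefSeq names matched 26466 of 26466 symbols, and no coordinates were used beyond overlap. No count model was fitted, since 1 library per group leaves no residual variation. A gene of the further pentose phosphate list is not reported here.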

Additional observations from a re-analysis of the deposited data

How the results depend on the processing

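No called gene changed direction under any alternative run. The causes of the shifts below were not tested unless stated. Over 11 alternatives each, the 4-fold counts ranged from 4 to 6 for BM-MSC and PBMC, 10 to 14 for BMAC and PBMC, and 3 to 5 for BM-MSC and BMAC. The median log2 ratio for BM-MSC over PBMC was 1.41 with TMM, 1.44 with median-of-ratios factors, 1.25 without the 5 ribosomal and associated rows, 0.82 with a pseudocount of 5 CPM, 0.73 with a floor of 1 CPM, 0.56 with no floor, and 0.98 both without overlapping genes and with the LDHB rows apart (added after the data were seen). For BMAC over PBMC it was 1.68, 1.69 and 1.5005 under the first 3 of these, 1.60 when the floor was 50 CPM and 1.29 with none. For BM-MSC over BMAC it was -0.75 at a floor of 50 CPM and -0.99 once overlapping genes were left out, while the smallest value, at a floor of 1 CPM, was -0.37, and TMM gave -0.42 and median-of-ratios factors -0.41. With TMM or median-of-ratios factors the 4-fold count of BM-MSC and PBMC stayed at 6, split 5 and 1. A pseudocount of 5 CPM left 10 genes past 4-fold for BMAC and PBMC, without HK3, PFKL and ALDOC, and 3 for BM-MSC and BMAC, without PFKL and PFKFB3. A floor of 50 CPM left 14 genes past 2-fold for BM-MSC and PBMC, 17 past 2-fold and 10 past 4-fold for BMAC and PBMC, and 8 past 2-fold for BM-MSC and BMAC, since fewer genes could be called. Without overlapping genes 11 were past 2-fold in the last pair, all higher in BMAC. Leaving out PFKM moved the PFKP share to 90.7%, 89.4% and 70.1% (PBMC, BM-MSC, BMAC), and leaving out PFKFB2 moved PFKFB3 to 79.6%, 58.9% and 74.2% and PFKFB4 in BM-MSC to 41.1%. No paired analysis was possible because each group is 1 library, and for the same reason no library could be left out. Depth limits genes such as PDK4 and ENO2, whose counts of 5 to 69 leave wide intervals.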
